A study of Mus musculus with 10 samples.

Results

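The enzymes described here handle peroxides, reactive electrophiles and aldehydes in the ectoderm of the mouse forelimb bud. They were taken by symbol from the gene table: the glutathione peroxidases (Gpx), the glutathione S-transferases (Gst and the microsomal Mgst), the peroxiredoxins (Prdx) and thioredoxin reductases (Txnrd), the aldehyde oxidases (Aox), the enzymes that make and recycle glutathione (Gclc, Gclm, Gss, Gsr), and Sod1, Sod2, Sod3, Cat, Nqo1 and Hmox1. The rule found 56 genes of 55401 in the table. It used symbols only and no measured value, but the enzymes were chosen with earlier results of these data known. Of the 56 genes, 51 had a count in at least 1 library, 5 had 0 counts in every library (Gpx5, Gsta1, Gsta2, Gstm3 and Gstt4), and 49 had enough counts to be tested.

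RNA was sequenced from ectoderm peeled off forelimb buds of mouse embryos at E9.75, an embryonic age in days. The double-knockout group (DKO) holds 3 libraries from embryos labelled as lacking both Sp8 and Sp6, a pair of zinc finger transcription factors of the limb ectoderm, and the wild-type group (WT) holds 3 libraries from littermates. No treatment of the embryos is named, and the protocol of each library lists 0.25% trypsin for 20 min. Each replicate pooled the ectoderm of about 2 forelimb buds, and how the knockout alleles were made is not given in the sources used here. The libraries are named by group and table column: DKO 17, DKO 40 and DKO 41, and WT 32, WT 53 and WT 56. The 4 further libraries of the series, at E10.5, were not analysed here.

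As background, glutathione is a short thiol peptide that cells make from glutamate, cysteine and glycine. Glutamate-cysteine ligase, built of the catalytic subunit Gclc and the modifier subunit Gclm, carries out the rate-limiting step. Glutathione peroxidases spend glutathione to reduce peroxides, glutathione S-transferases attach it to electrophiles, and glutathione reductase (Gsr) returns the oxidised form with electrons from NADPH. Peroxiredoxins reduce peroxides through thioredoxin, which thioredoxin reductases recycle. Many of these genes are textbook targets of the transcription factor NRF2 (gene Nfe2l2), which KEAP1 holds back in unstressed cells. Aldehyde oxidases are molybdenum enzymes that oxidise aldehydes, retinaldehyde among them, and aromatic heterocycles.

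The glutathione peroxidases fall into those that carry selenocysteine at the active site and those that carry cysteine there. The stretch of coding sequence around that codon is shown for the 8 members because the family's called genes, Gpx2 and Gpx6, lie on opposite sides of this division. Capitals mark the codon. TGA is annotated as a selenocysteine codon in GENCODE M21, and in Gpx5 to Gpx8 the capitals mark the codon aligned with it.
Gpx1: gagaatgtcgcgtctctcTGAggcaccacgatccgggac
Gpx2: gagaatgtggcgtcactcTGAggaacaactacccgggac
Gpx3: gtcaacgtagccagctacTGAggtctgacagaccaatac
Gpx4: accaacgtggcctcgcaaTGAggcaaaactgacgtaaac
Gpx5: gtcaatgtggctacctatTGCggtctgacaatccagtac
Gpx6: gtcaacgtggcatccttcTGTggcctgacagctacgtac
Gpx7: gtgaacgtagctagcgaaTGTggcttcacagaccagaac
Gpx8: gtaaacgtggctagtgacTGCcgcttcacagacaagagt
The Gpx2 codon lies at chr12:76795256-76795258 on the minus strand of GRCm38, and the Gpx6 codon at chr13:21313777-21313779 on the plus strand.

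RefSeq promoter sequence (GRCm38.p6) was matched for 49 of the 56 genes, at 63 starts in all; Gclc, Gsr, Gsta4, Gstt2, Hmox1, Prdx6 and Sod3 were not matched. The 250 bases before the start are shown for Gpx2 and Aox3, the genes with the largest falls, 5′ to 3′ on the strand of the gene. Neither holds the searched motifs TGACNNNGC (the core of the antioxidant response element bound by NRF2) and GGGCGG (a GC box, the kind of site that SP-family factors are known for), so no letters are in capitals. Variants of these motifs were not searched, so other SP-type sites may be present.
Gpx2 (chr12:76795555-76795804, minus strand): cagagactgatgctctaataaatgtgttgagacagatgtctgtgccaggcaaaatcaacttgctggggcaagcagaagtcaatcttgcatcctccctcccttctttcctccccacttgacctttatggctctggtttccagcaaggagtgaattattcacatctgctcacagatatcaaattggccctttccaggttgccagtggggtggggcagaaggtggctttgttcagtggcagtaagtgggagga
Aox3 (chr1:58112886-58113135, plus strand): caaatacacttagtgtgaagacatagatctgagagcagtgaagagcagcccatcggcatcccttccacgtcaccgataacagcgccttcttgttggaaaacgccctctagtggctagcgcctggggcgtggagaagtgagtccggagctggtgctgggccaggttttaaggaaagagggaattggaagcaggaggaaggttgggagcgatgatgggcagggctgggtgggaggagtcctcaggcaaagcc

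Of the 5 called genes with a matched promoter, Gclm and Txnrd1 hold TGACNNNGC. The match is shown in capitals within its flanks; it reads on the strand opposite to the gene, so the printed gene strand carries its reverse complement.
Gclm (chr3:122245407-122245447, plus strand, first base of the match 134 bases before the start): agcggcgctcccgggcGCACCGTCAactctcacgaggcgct
Txnrd1 (chr10:82859098-82859138, plus strand, first base of the match 92 bases before the start): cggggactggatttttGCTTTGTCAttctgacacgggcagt
Of the 3 Txnrd1 starts in the RefSeq table, only this one has the motif; the start at the 5′ end of the annotated gene and the third start have none.
Searched on both strands, TGACNNNGC was found at 8 of the 63 starts of the enzyme genes (12.7%) and at 3338 of 32851 promoters in the table (10.2%). The 8 genes were Gclm, Gsta3, Gstm5, Gstm7, Mgst1, Prdx1, Sod1 and Txnrd1. GGGCGG was found at 31 of the 63 starts (49.2%) and in 32.7% of all promoters, and Gclm and Txnrd1 were again the called genes that hold it. These matches describe letters in a window and not binding. The shares were not matched for G and C content, overlapping starts of the same gene were counted separately, and the difference in shares was not tested.

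Library totals ranged from 64432348 to 87040786 counts. Expression levels were counts scaled to library size as CPM with TMM factors, and a ± gives the SD (n = 3 in each group). Log2 fold changes are DKO minus WT, with a standard error (SE). Calls required an adjusted p below 0.05 in edgeR's quasi-likelihood test over 19126 genes. The targeted gene Sp8 was at 36.2 ± 6.22 CPM in WT against 3.68 ± 1.90 CPM in DKO (log2 fold change -3.29, edgeR adjusted p = 0.000811). Sp6 was at 228.5 to 319.9 CPM in WT and at 133.2, 13.9 and 76.9 CPM in DKO 17, DKO 40 and DKO 41, a difference that was not called (-1.94, edgeR adjusted p = 0.206; called without DKO 40). The labelled tissue was checked against 15 ectoderm and epithelium markers, all of which were detected, with a summed level of 4186 to 4564 CPM in WT and 2781 to 3688 CPM in DKO. The 12 markers of the apical ectodermal ridge, the signalling rim of the bud, summed to 2045 to 2518 CPM in WT and 309.5 to 510.4 CPM in DKO, and 8 of them fell. Globins and other erythroid transcripts differed widely between libraries, and 0 of the 9 tested were called. They summed to 0.591, 302.4 and 0.710 CPM in WT 32, WT 53 and WT 56. In DKO 17, DKO 40 and DKO 41 they summed to 27.6, 128.1 and 921.4 CPM, each above WT 32 and WT 56. Mesothelial markers summed to 162.8 to 185.8 CPM in WT and 306.1 to 531.3 CPM in DKO. Most of the sum and of its rise was the keratin Krt19 (151.5 CPM in WT and 408.7 CPM in DKO on average). Of the 7 markers, 4 rose (Krt19, Wt1, Lrrn4 and Aldh1a2) and 1 fell (Upk1b, 13.9 CPM in WT and 3.31 CPM in DKO). Endothelial markers summed to 34.5 to 48.7 CPM in WT and 52.0 to 75.1 CPM in DKO, with 0 of 5 tested called; nearly all of that sum was Egfl7 (32.9 to 47.3 CPM in WT and 50.2 to 74.0 CPM in DKO), and the defining marker Cdh5 was at 0 in all 6 libraries. Limb mesenchyme markers summed to 477.4 to 509.2 CPM in WT and 274.1 to 555.0 CPM in DKO, but single markers moved in opposite directions. Of 13 tested, 2 fell and 0 rose. Pdgfra averaged 66.6 CPM in WT and 7.66 CPM in DKO, and Meox1 67.4 and 16.5 CPM. Prrx2, Twist1 and Twist2 averaged 35.1, 6.45 and 3.41 CPM in WT. They were highest in DKO 40, at 174.3, 46.7 and 67.1 CPM, and were not called. Neural markers summed to 95.5 to 149.7 CPM in WT and 7.48 to 9.56 CPM in DKO. Most of that sum was Tubb3 (91.3 CPM in WT and 2.22 CPM in DKO on average) and Map2 (22.8 and 3.19 CPM). Of 5 neural markers tested, 3 fell (Tubb3, Map2 and Sox2) and 1 rose (Stmn2). Macrophage markers stayed under 3 CPM in each library, and Adgre1, C1qa and Lyz2 were at 0 in all 6. The part of these cell types in the results below was not tested. In pooled tissue, fewer cells of a type and less RNA per cell cannot be told apart.

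Of the 49 genes tested, 4 fell in DKO (Gpx2, Aox3, Gclm and Txnrd1), 3 rose (Sod3, Gpx6 and Gsta4) and 42 were not called. The share called was 14.3%, against 4.51% of all genes tested. Over all genes, 1.70% were called higher and 2.81% lower. Because the enzymes were chosen with earlier results of these data known, the larger share is a description and no test of the group. The median log2 fold change was 0.10 over the 49 genes and 0.03 over all genes tested. The 3 DKO libraries lay wholly above or below the 3 WT libraries in 16 of the 49 genes (32.7%), 10 higher and 6 lower, against 21.9% of all genes (10.6% higher and 11.3% lower). Of the 42 genes not called, 34 had a fold change under 1.5, and 5 had an absolute log2 fold change of 1 or more: Aox1, Aox4, Gstm6, Gstt1 and Gstp3. With no filter on low counts, Aox3, Txnrd1, Gpx6 and Gsta4 lost their calls, and Gpx6 and Gsta4 also with edgeR's default dispersion setting (legacy=TRUE). Without both WT 32, the library with the most transcript of the mesenchymal marker Prrx1, and DKO 41, the one with the most globin transcript, only Gpx2 and Gpx6 were called.

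**Figure D1:**
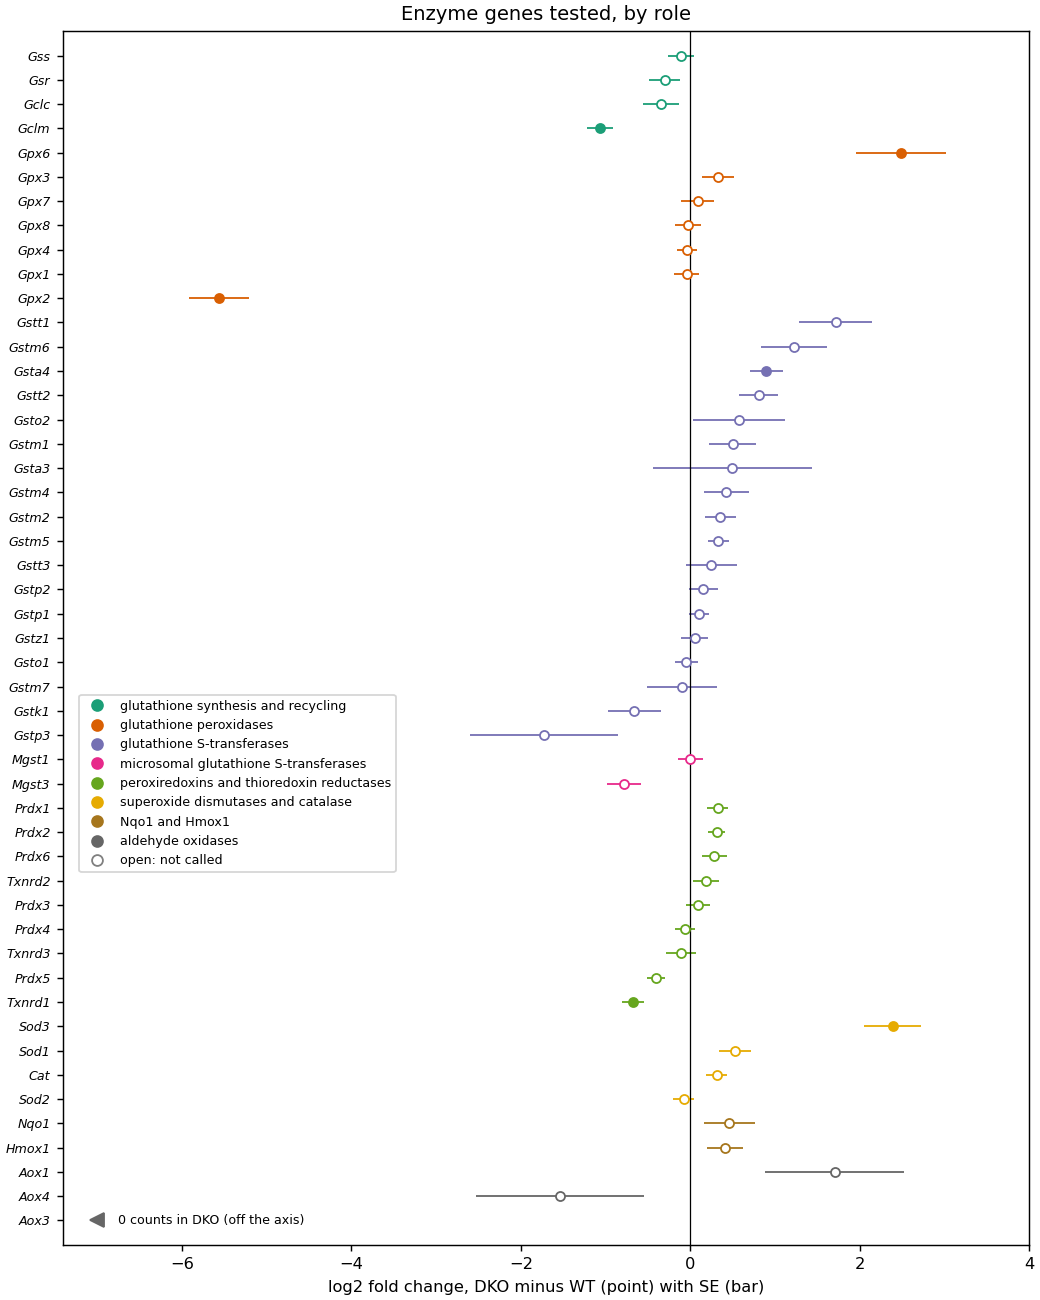
Log2 fold change, DKO minus WT, of each of the 49 enzyme genes tested (point) with its SE (bar), coloured by role; filled points were called in edgeR and open points were not. Most points lie near 0, Gpx2 lies at -5.56, and Aox3, which had 0 counts in DKO, is drawn as an arrow at the edge of the axis.

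Per kilobase of exon, the scale on which genes are compared here, the highest WT levels were those of Prdx2 (413 ± 46.3 CPM per kb), Prdx1 (358 ± 34.9), the cytosolic peroxidase Gpx1 (285 ± 45.2), the phospholipid peroxidase Gpx4 (209 ± 28.3) and Gstp1 (156 ± 8.05). In that order the ranges of mean ± SD overlapped between Prdx2 and Prdx1 and between Prdx1 and Gpx1, and not between Gpx1 and Gpx4 or between Gpx4 and Gstp1. None of these 5 genes was called. With the longest transcript as the length, Prdx2 was at 782 CPM per kb and remained first. The called genes sat lower in the order: Txnrd1 at 70.9 ± 2.85 CPM per kb was the highest of them in WT.

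**Figure D2:**
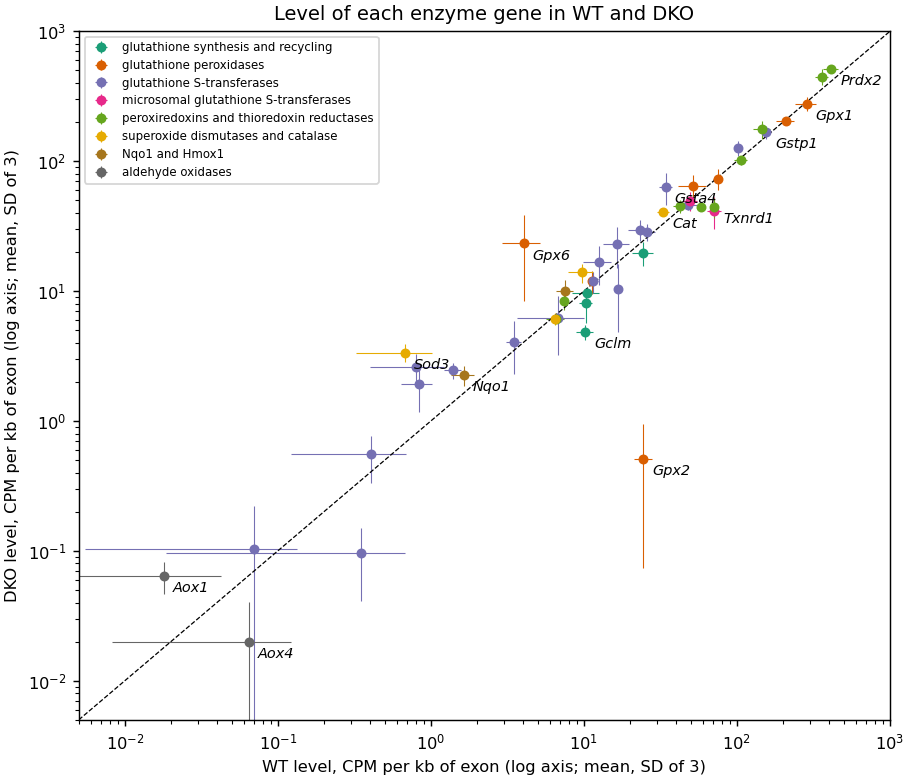
Level of each enzyme gene with a count in both groups, in CPM per kb of exon, in WT (x axis) against DKO (y axis), both on log axes, as the mean of 3 libraries with SD bars; a bar that reaches 0 runs off the axis. The dashed line marks equal levels: Prdx2, Gpx1 and Gstp1 lie along it, Gpx2 far below it, and Gpx6 and Sod3 above it.

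In the class that makes and recycles glutathione, 1 of 4 genes fell and 0 rose. Gclm, the modifier subunit that raises the activity of the ligase (ENSMUSG00000028124.15, chromosome 3, 122245557 to 122270732), was at 60.6, 73.0 and 58.6 CPM in WT 32, WT 53 and WT 56, and at 35.1, 28.0 and 28.6 CPM in DKO 17, DKO 40 and DKO 41. All 3 DKO values were below the lowest WT value, and the mean was 2.09-fold lower in DKO (log2 fold change -1.06, SE 0.154, edgeR adjusted p = 0.00676). Gclm kept its call with any 1 library left out; without both WT 32 and DKO 41 its adjusted p in edgeR was 0.0582. Predicted transcripts overlap 296 bases of its exons. The catalytic subunit Gclc was at 38.7 ± 3.57 CPM in WT against 30.4 ± 9.06 CPM in DKO (-0.35, edgeR adjusted p = 0.440). In DKO 17 Gclc was at 40.9 CPM, within the WT range of 35.9 to 42.7, and in DKO 40 and DKO 41 at 24.8 and 25.6 CPM. Glutathione reductase (Gsr) was at 67.0 ± 10.3 CPM in WT against 54.3 ± 11.3 CPM in DKO (-0.30, edgeR adjusted p = 0.447). Glutathione synthetase (Gss), which completes the peptide, was at 61.7 ± 12.3 CPM in WT against 57.1 ± 1.95 CPM in DKO, and its log2 fold change of -0.11 changed sign with a library left out. Exons of other genes overlap 913 bases of Gss.

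Gpx2 fell further than any other enzyme gene with counts in both groups. It encodes a selenocysteine peroxidase best known from the lining of the gut (ENSMUSG00000042808.8, chromosome 12, 76792333 to 76795554). Its levels were 88.3, 67.3 and 80.4 CPM in WT 32, WT 53 and WT 56, and 3.24, 0.562 and 1.14 CPM in DKO 17, DKO 40 and DKO 41. The groups were far apart, and DKO 17 was the highest of the DKO libraries. The mean was 47.7-fold lower in DKO (log2 fold change -5.56, SE 0.353, edgeR adjusted p = 0.000183), and -6.49 without DKO 17. Gpx2 was called with any 1 library left out and also without both WT 32 and DKO 41 (-5.28, edgeR adjusted p = 0.00808).

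Gpx6, which has a TGT cysteine codon at the site where Gpx2 has the selenocysteine codon (ENSMUSG00000004341.8, chromosome 13, 21312125 to 21319624), rose. Its levels were 6.45, 3.77 and 6.39 CPM in WT 32, WT 53 and WT 56, and 33.3, 51.6 and 10.9 CPM in DKO 17, DKO 40 and DKO 41. The groups did not overlap, but the DKO libraries were spread widely and DKO 41 lay closest to WT. The mean was 5.76-fold higher in DKO (log2 fold change 2.49, SE 0.528, edgeR adjusted p = 0.0327). With 1 library left out, Gpx6 stayed called only where that library was DKO 41. Its neighbour on chromosome 13, Gpx5, had 0 counts in every library.

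The other 5 peroxidases tested lay between -0.05 (Gpx1) and 0.33 (Gpx3) on the log2 scale and were not called. Gpx1 was at 410.4 CPM in WT against 397.6 CPM in DKO, and Gpx4, which protects membrane lipids, at 360.8 and 351.1 CPM. Summed per kilobase, the class stood at 660 ± 77.7 CPM per kb in WT and 653 ± 52.1 in DKO. Gpx2 was 3.76 ± 0.814% of that sum in WT and 0.0792 ± 0.0668% in DKO, and Gpx6 was 0.630 ± 0.227% and 3.46 ± 2.02%. Gpx1 and Gpx4 together made up most of the sum in both groups. Across the peroxidases and thioredoxin reductases, 7 genes carry an annotated selenocysteine (Gpx1 to Gpx4 and Txnrd1 to Txnrd3): 2 fell, 0 rose and their median log2 fold change was -0.05. Of the 42 other genes tested, 2 fell and 3 rose, with a median of 0.20. Over all genes tested, 2.81% were called lower and 1.70% higher. The selenocysteine genes that fell were Gpx2 and Txnrd1. With 1 library left out, Gpx2 kept its call in all 6 fits and Txnrd1 in 1. Gpx1, Gpx3, Gpx4, Txnrd2 and Txnrd3 were not called. The split was made with the calls of Gpx2 and Gpx6 known, so these counts are a description and no test.

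**Figure D3:**
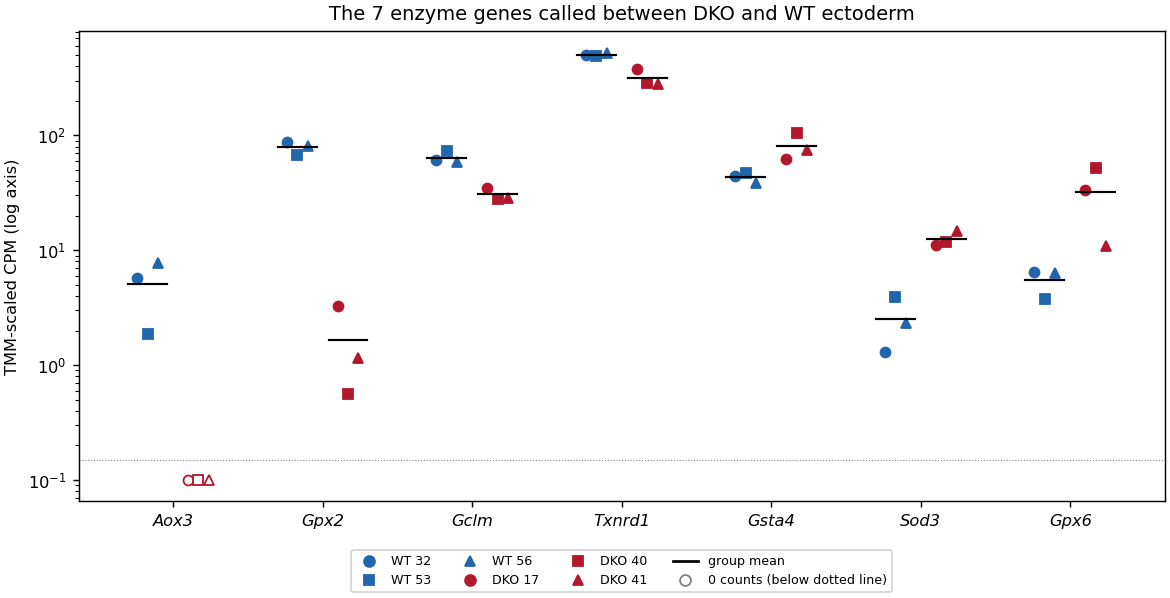
Level of the 7 called enzyme genes in each library, as TMM-scaled CPM on a log axis, with WT in blue, DKO in red and the group mean as a black line; open points under the dotted line are 0 counts. In each gene the 3 DKO points lie wholly above or below the 3 WT points, and DKO 41 is the lowest DKO point in Gpx6.

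Of 18 glutathione S-transferases tested, 1 rose and 0 fell, and the median log2 fold change of the class was 0.34. Gsta4, an alpha-class enzyme that conjugates 4-hydroxynonenal, a product of lipid peroxidation (ENSMUSG00000032348.6, chromosome 9, 78182774 to 78209349), was at 44.0, 47.1 and 38.8 CPM in WT 32, WT 53 and WT 56. It was at 61.9, 104.7 and 74.9 CPM in DKO 17, DKO 40 and DKO 41. The groups did not overlap, and the mean was 1.86-fold higher in DKO (log2 fold change 0.90, SE 0.197, edgeR adjusted p = 0.0377). Gsta4 kept its call only where the left-out library was DKO 17. Its share of the class per kilobase was 7.45 ± 0.225% in WT and 11.6 ± 1.62% in DKO.

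Gstp1, the pi-class enzyme that led the class, was at 241.0 CPM in WT against 259.2 CPM in DKO and was not called (0.10, edgeR adjusted p = 0.716); it made up 34.0 ± 0.574% of the class in WT and 31.0 ± 2.71% in DKO. Gstm5 followed with 22.0 ± 0.931% and 23.5 ± 1.26%. The theta-class enzyme Gstt1 was at 0.521, 1.48 and 1.68 CPM in WT and 2.80, 4.40 and 4.72 CPM in DKO, without overlap, but missed the threshold (1.72, SE 0.430, edgeR adjusted p = 0.0609). Gstm6 was at 1.65 ± 0.382 CPM in WT against 3.83 ± 1.497 CPM in DKO (1.23, edgeR adjusted p = 0.129). Gstp3 stayed under 1 CPM in each library (-1.73, edgeR adjusted p = 0.324; -0.76 without WT 53). The mu genes lie together on chromosome 3 and the pi genes on chromosome 19. Of the alpha genes, Gsta1, Gsta2 and Gsta4 lie on chromosome 9 and Gsta3 on chromosome 1. Genes of 1 class are related, so the split of reads among them is uncertain. Gsta1 and Gsta2 had 0 counts in every library.

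Of the microsomal enzymes, neither of the 2 tested was called. Mgst3 was at 71.5, 74.9 and 87.6 CPM in WT and 31.5, 49.7 and 55.1 CPM in DKO, without overlap (-0.78, SE 0.203, edgeR adjusted p = 0.0690). Mgst1 was at 99.7 CPM in both groups. Mgst2 had 9 counts, all in DKO 40, and was not tested.

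Among 9 peroxiredoxins and thioredoxin reductases, 1 fell and 0 rose. Txnrd1, the cytosolic selenoenzyme that recycles thioredoxin (ENSMUSG00000020250.10, chromosome 10, 82833951 to 82897712), was at 496.6, 486.1 and 525.1 CPM in WT 32, WT 53 and WT 56. It was at 376.9, 284.7 and 281.5 CPM in DKO 17, DKO 40 and DKO 41. All 3 DKO values were below the lowest WT value and DKO 17 lay nearest to WT; the mean was 1.60-fold lower (log2 fold change -0.68, SE 0.131, edgeR adjusted p = 0.0231). The call held only where the left-out library was DKO 17. The mitochondrial Txnrd2 (0.19, edgeR adjusted p = 0.603) and Txnrd3 (-0.11, edgeR adjusted p = 0.816) were not called.

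Prdx2, the most abundant enzyme gene on the per-kilobase scale, was at 1203, 1421 and 1158 CPM in WT 32, WT 53 and WT 56, below the 1514 to 1593 CPM of the DKO libraries, and was not called (0.31, edgeR adjusted p = 0.147). Exons of Junb and Rnaseh2a overlap it, 350 bases in all. Prdx2 is also abundant in red cells, whose transcripts summed to 27.6, 128.1 and 921.4 CPM in DKO 17, DKO 40 and DKO 41. In WT 32, WT 53 and WT 56 that sum was 0.591, 302.4 and 0.710 CPM. The part of red cells in the level of Prdx2 was not tested. Prdx1 was at 1091 ± 106 CPM in WT against 1363 ± 186 CPM in DKO (0.32, edgeR adjusted p = 0.216). The remaining peroxiredoxins tested ranged from -0.40 (Prdx5) to 0.28 (Prdx6) on the log2 scale.

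Of the superoxide dismutases and catalase, 1 of 4 rose and 0 fell. Sod3, the secreted dismutase bound to the extracellular matrix (ENSMUSG00000072941.5, chromosome 5, 52363791 to 52371418), was at 1.31, 3.90 and 2.33 CPM in WT 32, WT 53 and WT 56. It was at 11.1, 11.7 and 14.8 CPM in DKO 17, DKO 40 and DKO 41. The DKO libraries lay close together and above each WT library; the mean was 4.99-fold higher (log2 fold change 2.39, SE 0.336, edgeR adjusted p = 0.00611). Sod3 kept its call with any 1 library left out, and without both WT 32 and DKO 41 its adjusted p in edgeR was 0.0544. The mesothelial marker sum was also higher in the DKO libraries, a rise that was mostly Krt19. Of the 7 mesothelial markers, 4 rose (Krt19, Wt1, Lrrn4 and Aldh1a2) and 1 fell (Upk1b). The part of mesothelial cells in the rise of Sod3 was not tested.

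The cytosolic Sod1 was at 38.4 ± 7.09 CPM in WT against 55.2 ± 9.45 CPM in DKO (0.53, edgeR adjusted p = 0.163), with DKO 41 at 44.9 CPM below WT 53 at 46.3. The mitochondrial Sod2 was at 64.8 ± 2.64 and 61.4 ± 6.504 CPM (-0.08, edgeR adjusted p = 0.812). Catalase (Cat), the peroxisomal enzyme that breaks down hydrogen peroxide, was at 92.7, 86.9 and 77.7 CPM in WT and 97.4, 113.5 and 107.7 CPM in DKO, without overlap (0.31, edgeR adjusted p = 0.221).

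Nqo1 and Hmox1, commonly read as markers of NRF2 activity, were not called. The quinone reductase Nqo1 was at 2.54 ± 0.429 CPM in WT against 3.50 ± 0.618 CPM in DKO (0.46, edgeR adjusted p = 0.487). The heme oxygenase Hmox1 was at 13.2 ± 1.66 and 17.6 ± 3.53 CPM (0.41, edgeR adjusted p = 0.354). In both genes the groups overlapped. Gclm and Txnrd1, which fell, are also textbook NRF2 targets. The activity of NRF2 was not tested.

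The aldehyde oxidase genes lie side by side on chromosome 1, in the order Aox1, Aox3, Aox4 and Aox2. Aox3 (ENSMUSG00000064294.12, 58113130 to 58200698) fell to 0 counts in all 3 DKO libraries, from 5.74, 1.88 and 7.77 CPM in WT 32, WT 53 and WT 56 (edgeR adjusted p = 0.0193). Set against a floor of 3 counts over the DKO group, or 0.012 CPM, Aox3 was at least 426-fold lower; the bound covers counting error only and ran from 273 (without DKO 41) to 561 (without WT 53) with 1 library left out, and was 284 without DKO 17. The call was lost without DKO 40, WT 32 or WT 56 and kept without DKO 17, DKO 41 or WT 53. In each of these fits 1 group has 2 libraries and DKO was at 0 counts.

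Aox3 was the bulk of aldehyde oxidase transcript in WT, at 86.1 ± 15.0% of the class per kilobase. The class summed to 0.812 ± 0.419 CPM per kb in WT and 0.0881 ± 0.0212 in DKO. Aox1 was at 0.0695, 0 and 0.401 CPM in WT and 0.480, 0.457 and 0.740 CPM in DKO, without overlap; it was not called (1.70, SE 0.818, edgeR adjusted p = 0.309), and its log2 fold change was 3.76 without WT 56. Aox1 made up 73.8 ± 14.4% of what remained of the class in DKO. Aox4 was at 0.0463, 0.995 and 0.595 CPM in WT and 0.348, 0 and 0.157 CPM in DKO (-1.54, SE 0.995, edgeR adjusted p = 0.473), with a log2 fold change from -2.56 (without DKO 17) to -0.90 (without WT 53) with 1 library left out, and other genes overlap 472 bases of its exons. Aox2 had 5 counts, all in DKO 40, and was not tested.

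**Figure D4:**
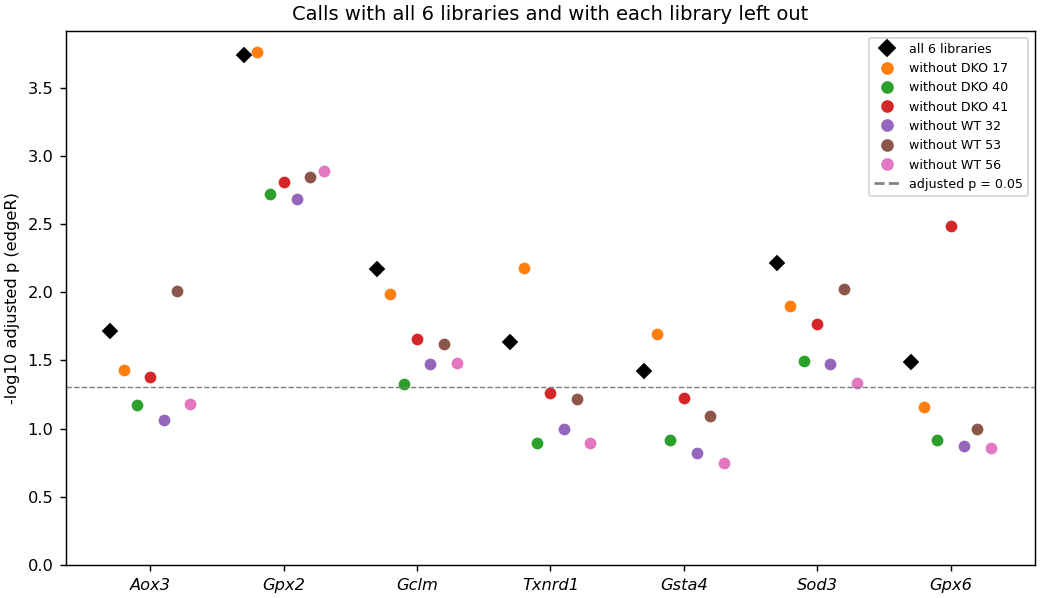
Strength of the call of each of the 7 called enzyme genes, as -log10 of the edgeR adjusted p, with all 6 libraries (black diamonds) and with each library left out (coloured points). The dashed line marks an adjusted p of 0.05: Gpx2, Gclm and Sod3 stay above it in all 6 fits, Aox3 in 3, and Gpx6, Gsta4 and Txnrd1 in 1 each.

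The genes that supply, regulate and work beside these enzymes were read in 9 lists with 161 tested genes. Of these, 3 rose and 7 fell, and over all genes tested 4.51% were called. With no filter on low counts Glrx, Mocos, Aldh1a2 and Slc40a1 lost the calls given below, and with legacy=TRUE Duox1 and Slc40a1 did. Without both WT 32 and DKO 41, Adh1, Bach2, Sesn1, Glrx and Duox1 were still called, and the other 5 were not. Among 14 regulators around NRF2 and KEAP1, 1 fell and 0 rose (median log2 fold change -0.09). Nfe2l2 was at 54.8, 52.8 and 49.3 CPM in WT and 48.2, 37.8 and 43.1 CPM in DKO (-0.28, edgeR adjusted p = 0.337). Keap1 was at 98.0 and 102.8 CPM on average (0.07, edgeR adjusted p = 0.846), and its sign changed with a library left out. Bach2, a repressor that competes with NRF2 at its sites, was at 41.03, 37.1 and 45.2 CPM in WT and 9.47, 6.77 and 15.2 CPM in DKO (-1.96, SE 0.258, edgeR adjusted p = 0.00468). It kept its call with any 1 library left out. The antisense gene Bach2os overlaps 537 bases of its exons, and the chemistry does not separate strands.

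Among 20 thioredoxin and glutaredoxin partners, 2 fell and 0 rose (median 0.09). Sesn1, a sestrin linked to peroxiredoxin recycling and nutrient signalling, was at 52.3 ± 8.49 CPM in WT against 22.2 ± 4.52 CPM in DKO (-1.23, edgeR adjusted p = 0.00947). Glrx, the cytosolic glutaredoxin that removes glutathione from protein thiols, was at 34.2 ± 3.75 and 11.4 ± 4.99 CPM (-1.57, edgeR adjusted p = 0.0174). Both genes lost their call without DKO 40, and Glrx also without any 1 of the WT libraries.

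Among 22 genes of glutathione transport, breakdown and precursor supply, 1 fell and 0 rose (median 0.07). Slc7a11, the cystine importer that feeds glutathione synthesis, was at 16.96, 17.02 and 17.96 CPM in WT and 8.94, 5.31 and 4.595 CPM in DKO. The WT libraries were nearly equal, and each DKO library lay below them (-1.47, SE 0.257, edgeR adjusted p = 0.0156). The call was lost without DKO 40, WT 32 or WT 56.

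Among 17 genes of NADPH supply (median 0.06), 0 were called in edgeR and 0 in DESeq2. In edgeR 6 of them had an unadjusted p under 0.05, as had 3448 of all 19126 genes tested. Of 22 genes of selenoprotein synthesis and other selenoproteins (median 0.07), 0 were called in edgeR, 3 had an unadjusted p under 0.05, and DESeq2 called 1 higher and 1 lower. Among 9 genes of the molybdenum cofactor and its enzymes, 1 fell and 0 rose (median 0.22). Mocos, the sulfurase that activates the molybdenum cofactor of aldehyde oxidases and of xanthine dehydrogenase, was at 1.83, 0.963 and 0.767 CPM in WT and at 0 counts in the DKO libraries. This was at least 98.5-fold lower (edgeR adjusted p = 0.0287), with the bound between 63.2 and 116 when 1 library was left out. The call was lost with any 1 library left out. Xanthine dehydrogenase (Xdh) had counts only in DKO 41, at 0.0897 CPM, and was not tested.

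Of 27 other detoxifying oxidoreductases and conjugating enzymes, 3 rose and 0 fell (median 0.21). Adh1, an alcohol dehydrogenase that oxidises ethanol and retinol, was at 10.1, 13.1 and 10.51 CPM in WT and 37.5, 44.0 and 55.2 CPM in DKO (2.03, SE 0.202, edgeR adjusted p = 0.00126), and was called with any 1 library left out. Ephx1, the microsomal epoxide hydrolase, was at 0.104, 0.426 and 0.103 CPM in WT and 2.06, 5.82 and 6.34 CPM in DKO (4.63, SE 0.724, edgeR adjusted p = 0.00663), and lost its call without WT 32 or WT 56. Without WT 53 its log2 fold change was 5.496. Other annotated genes overlap 136 bases of the exons of Adh1 and 72 of those of Ephx1. Aldh1a2, which makes retinoic acid from retinaldehyde, had 0 counts in WT and 0.876, 0.431 and 0.616 CPM in DKO. It was at least 50.7-fold higher (edgeR adjusted p = 0.0324), with the bound between 32 (without WT 56) and 59.0 (without DKO 40) when 1 library was left out, and 32.2 without WT 32. The call was lost with any 1 library left out. Aldh1a2 is also one of the 7 mesothelial markers above, of which 4 rose and 1 fell.

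Of 18 genes of heme and iron handling, 1 fell and 0 rose (median -0.04). It was Slc40a1, the iron exporter ferroportin, which averaged 11.4 ± 2.11 CPM in WT against 5.22 ± 1.19 CPM in DKO (-1.11, edgeR adjusted p = 0.0453). It stayed called only where the left-out library was DKO 41. Of 13 oxidant sources, 1 fell and 0 rose (median -0.20). Duox1, an NADPH oxidase that releases hydrogen peroxide at epithelial surfaces, was at 4.05, 3.49 and 3.72 CPM in WT and 0.108, 0.274 and 0.874 CPM in DKO (-3.12, SE 0.486, edgeR adjusted p = 0.00938); it was -4.33 without DKO 41 and lost its call without DKO 40.

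**Figure D5:**
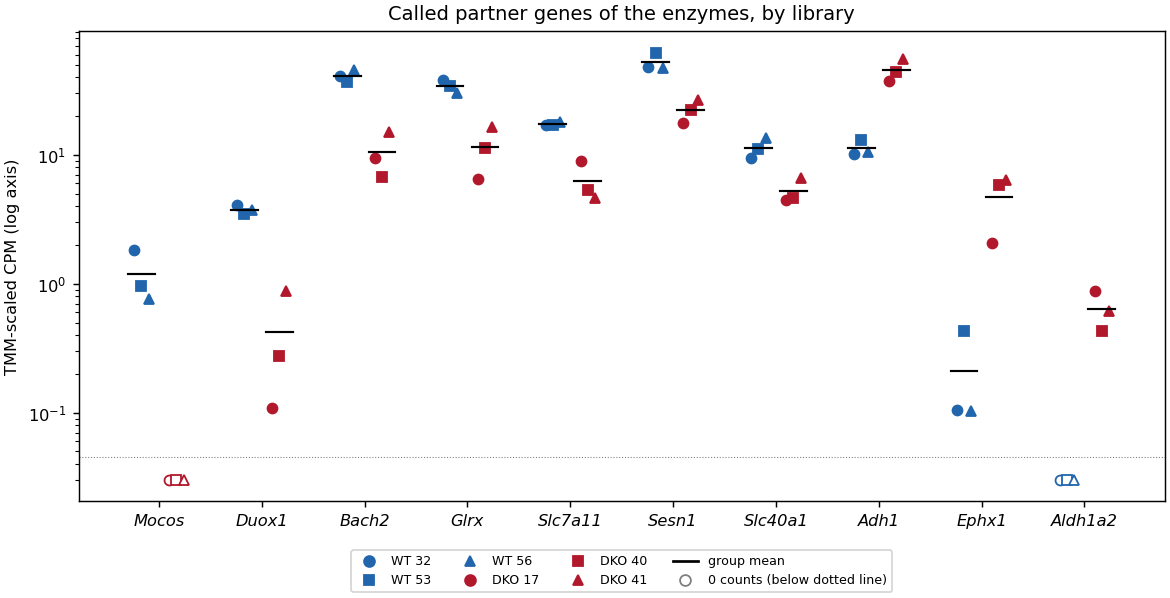
Level of the 10 called partner genes of the enzymes in each library, as TMM-scaled CPM on a log axis, with WT in blue, DKO in red and the group mean as a black line; open points under the dotted line are 0 counts. Mocos was at 0 in the 3 DKO libraries and Aldh1a2 at 0 in the 3 WT libraries, and in each gene the groups do not overlap.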

How the data were processed

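For the 6 E9.75 libraries the authors deposited unnormalised gene counts. Tools named per the submitters' processing notes are HISAT2, StringTie, Cufflinks, fastp, FastQC and DESeq2, with builds mm10 and GRCm38; which step wrote the counts is not given in the sources used here. Libraries were made with SMART-Seq v4 and Nextera XT, per the labels' protocols, which mark neither strand nor molecule, so PCR copies are counted and intervals and floors cover counting error only.

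Counts were tested with edgeR 4.0.16 in R 4.3.3 (quasi-likelihood F test after filterByExpr and TMM, with robust=TRUE and legacy=FALSE in glmQLFit) and adjusted by Benjamini-Hochberg over 19126 genes. The SE was taken as the absolute log2 fold change over √F. DESeq2 1.42.0, other scalings and filters, and each library left out were alternatives. Exons came from GENCODE M21, which held 55141 of 55401 identifiers. Columns carry no replicate number of the labels. The labels do not say which embryo each library came from, so each p-value reflects only library-to-library spread, which may be technical. Each pair of libraries differed beyond sampling noise.

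The enzymes and gene lists were chosen with earlier results of these data known. Named are the called enzymes, those with an absolute log2 fold change of 1 or more, the most abundant of each class, its lowest p where none was called, each member of the small classes, and up to 4 called genes per list; others named were chosen after their values were seen. A gene of the oxidant source list is not reported here, and the list's counts and median leave it out.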

Additional observations from a re-analysis of the deposited data

How the results depend on the processing

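No paired analysis was possible because the table's columns carry no replicate numbers of the labels. No called gene changed direction under the alternatives run. Over all genes, the 325 calls higher and 538 lower in edgeR became 754 and 984 in DESeq2, 116 and 296 with no filter on low counts, 200 and 346 with legacy=TRUE, and 95 and 282 without both WT 32 and DKO 41. With 1 library left out they ranged from 53 to 331 and from 194 to 591. Of the enzymes, 3 higher and 4 lower became 6 and 6 in DESeq2, 1 and 2 with no filter, 1 higher with legacy=TRUE, and 1 and 1 without both libraries; with 1 library left out they ranged from 1 to 2 and from 2 to 5. DESeq2 added Gstm6, Gstt1 and Gstt2 higher and Mgst3 and Prdx5 lower. A filter of at least 1 CPM in 3 libraries added Gstt1 and Mgst3. Over the partner lists, 3 higher and 7 lower became 9 and 13 in DESeq2, 4 lower with no filter, and 1 and 5 without both libraries, and with 1 library left out ranged from 1 to 4 and from 1 to 8. The per-kilobase level of Prdx2 in WT moved from 413 to 782 CPM per kb with the longest transcript. The cause of these shifts was not tested. For Aox1, Aox4 and Gstp3, which stayed under 1 CPM in each library, no difference was detectable at this depth.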
